A study of Homo sapiens with 12 samples.

Results

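Tight junctions and desmosomes are the contacts that seal neighbouring epithelial cells and fasten them to each other, and 9 genes that encode their parts are described here. They are the claudin genes CLDN1, CLDN4, CLDN7 and CLDN12, the occludin gene OCLN, the scaffold gene TJP1 (ZO-1), and the desmosome genes DSP (desmoplakin), JUP (plakoglobin) and PKP2 (plakophilin 2). They were chosen by name, with earlier results of these data known, from the 64253 entries of the deposited table, and all 9 were found. Of these, 8 passed the level filter that left 20244 genes for testing, while CLDN7 did not. RNA sequencing was run on 12 libraries from H1299 spheroids; H1299 is an established human line of non-small cell lung cancer. Each of 4 groups held 3 libraries: NT1 and NT2, whose genotype is labelled NT and which are taken as the controls, PRKCI_KD, in which PRKCI was knocked down, and SOX2_KD, in which SOX2 was knocked down. Per the series title both knockdowns used lentiviral short hairpin RNAs; the number of hairpins per target is not given in the sources used here, nor whether replicates came from separate cultures, so that p-values measure the spread between these libraries, which may be technical. NT1 and PRKCI_KD were sequenced on lane 8 of a flow cell, and NT2 and SOX2_KD on lane 7 of another, and each knockdown was set against the control of its own flow cell.

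Claudins are membrane proteins whose extracellular loops pair between cells and set how tight and how ion-selective the seal is, occludin is a second membrane protein of the same strands, and ZO-1 ties these strands to the actin cytoskeleton. Desmosomes are built differently: desmosomal cadherins span the membrane, plakoglobin and plakophilins bind their tails, and desmoplakin links that plaque to keratin filaments. The atypical protein kinase encoded by PRKCI acts in the polarity complex that helps tight junctions form in epithelia. H1299 cells are known for a mesenchymal form with little E-cadherin.

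The promoters of CLDN1 and DSP are shown because these genes had the largest rises in PRKCI_KD and the largest excess of NT2 over NT1 among the 9. Both stretches are from RefSeq (GRCh38.p14), written on the strand of the gene, and end before the most upstream start of the gene in RefSeq or GENCODE 29. The CLDN1 stretch is chr3:190322476-190322696, minus strand, and its last base lies 30 bases upstream of the RefSeq start; the DSP stretch is chr6:7541421-7541574, plus strand, and its last base lies 97 bases upstream of the RefSeq start. Capitals mark the GC box GGGCGG and the E-box CAGGTG, which SNAI and ZEB repressors are known to bind, on either strand.
CLDN1: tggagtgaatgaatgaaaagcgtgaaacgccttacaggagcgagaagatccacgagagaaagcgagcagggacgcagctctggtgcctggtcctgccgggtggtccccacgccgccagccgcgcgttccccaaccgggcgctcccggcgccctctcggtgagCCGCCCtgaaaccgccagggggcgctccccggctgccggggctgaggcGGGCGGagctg
DSP: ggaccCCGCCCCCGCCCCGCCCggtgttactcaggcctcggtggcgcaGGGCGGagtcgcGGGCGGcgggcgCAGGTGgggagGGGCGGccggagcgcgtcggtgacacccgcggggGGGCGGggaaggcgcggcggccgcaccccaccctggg
The CLDN1 stretch held 2 GC boxes and no CAGGTG, and the DSP stretch held 7 GC boxes, some of which overlap each other, and 1 CAGGTG. RefSeq promoters were found for 8 of the 9 genes, with 14 starts. In the 250 bases upstream of each start, CAGGTG was found at 6 of 14 starts, against 17.5% of 35116 windows of the same length. GGGCGG was found at 9 starts, against 42.6% of windows. Counted by gene, with a match at any start, CAGGTG was found for 5 of these 8 genes and GGGCGG for 7. The window shares do not apply to counts by gene, and they were not matched for GC content. The AP-1 site TGANTCA was found only at CLDN4, with 2 matches (6.57% of windows), the hypoxia core ACGTG only at OCLN (18.5%), and the grainyhead site AACCGGTT and the TATA box TATAAA at none of the 14 (0.117% and 10.7%). All these motifs were searched on both strands. The GC content was 68.8% for CLDN1 and 78.0% for DSP, against a median of 58.0% over all windows.

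The targeted genes were read as a check of the labels. PRKCI was at 14.8 ± 1.40 RPKM (reads scaled by gene length and by the library's total reads; mean ± SD, n = 3) in NT1 and 2.50 ± 0.0799 RPKM in PRKCI_KD, and in SOX2_KD, SOX2 was at 0.564 ± 0.0359 RPKM, below the 1.48 ± 0.0740 RPKM of NT2 (log2 fold change -0.66, adjusted p = 0.000227 in limma). SOX2 was also lower in PRKCI_KD, at 2.02 ± 0.245 RPKM, than in NT1, at 3.01 ± 0.123 RPKM (log2 fold change -0.41, adjusted p = 0.000251 in limma). The SOX2 values do not all correspond to whole reads. Read totals recovered from the RPKM values were 77104553 to 124302738 per library. Entries of the table with whole reads held 99.920% to 99.937% of each total. Across genes tested, log2(RPKM + 1) correlated at 0.964 to 0.997 between libraries of a flow cell and at 0.827 to 0.838 across flow cells, so the flow cells stand apart. Of the epithelial markers, KRT8 and KRT18 were abundant, with group means of 36.3 to 136 RPKM, while the E-cadherin gene CDH1 (0.00900 to 0.0391 RPKM) and EPCAM (0.0286 to 0.304 RPKM) were near 0. The mesenchymal marker VIM was at 313 to 598 RPKM, and CDH2, which encodes N-cadherin, was at 12.8 and 11.4 RPKM in NT1 and PRKCI_KD but at 0.602 and 0.348 RPKM in NT2 and SOX2_KD. The group means of all 3 fibroblast, all 3 endothelial and all 3 immune markers stayed at or below 0.115 RPKM, and CD3E was at 0 in every library. In bulk RNA such as this, fewer cells expressing a gene and less RNA per cell cannot be told apart.

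**Figure D1:**
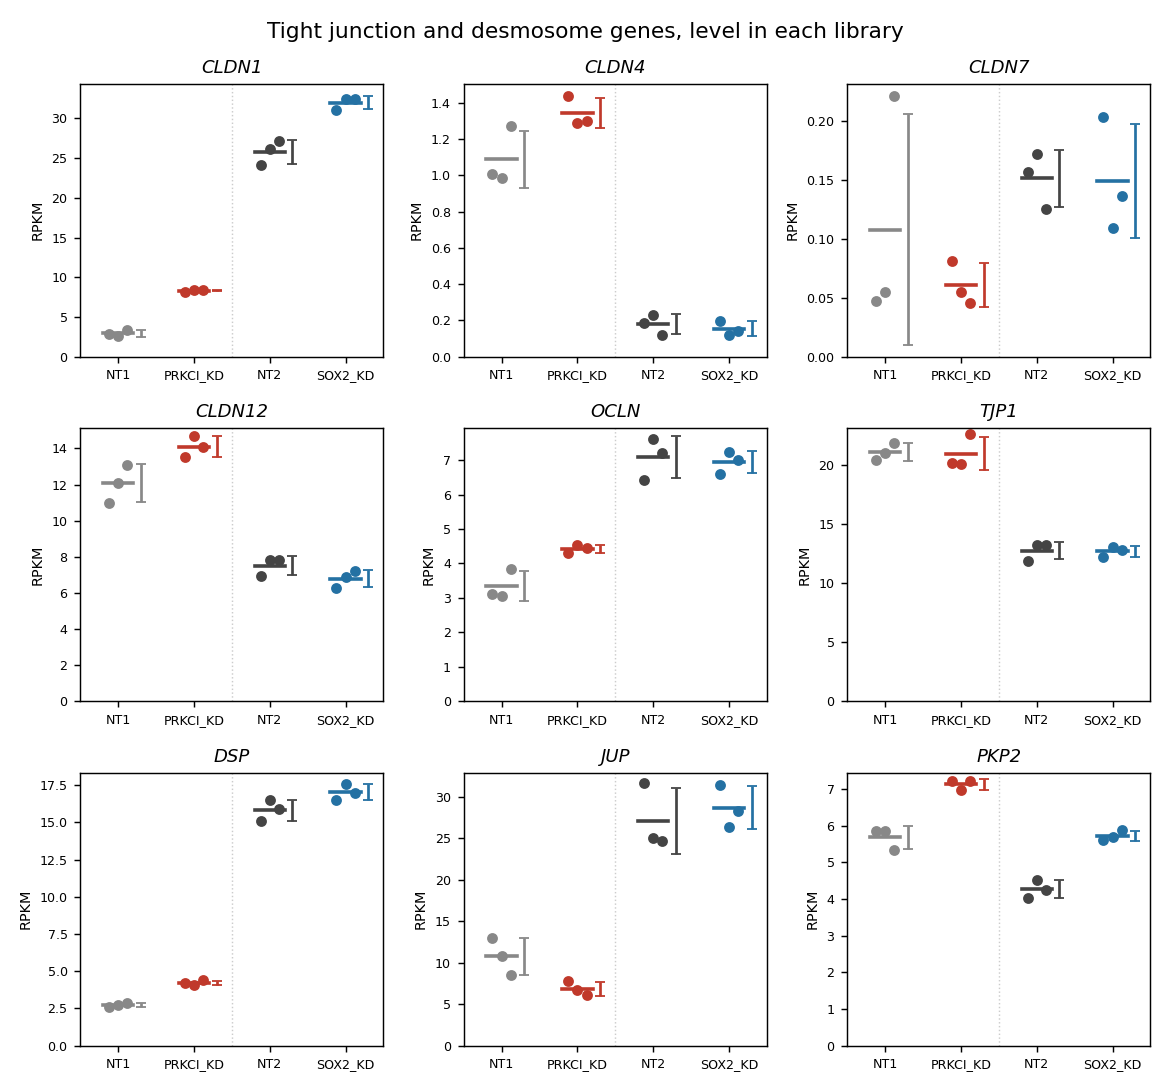
Level of each of the 9 genes in RPKM (vertical axes, linear from 0, a scale per gene) in the 12 libraries by group; points are libraries, horizontal lines are means, brackets are ± 1 SD (n = 3) and the dotted line separates the flow cells. CLDN1 and DSP are lowest in NT1 and highest in NT2 and SOX2_KD, while CLDN4 is above 0.9 RPKM in NT1 and PRKCI_KD and below 0.3 RPKM in NT2 and SOX2_KD.

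The order of the 9 genes by level, which RPKM allows because it is scaled by gene length, differed between the flow cells. In NT1, TJP1 led with a mean of 21.1 RPKM, followed by CLDN12 at 12.0, JUP at 10.8, PKP2 at 5.68, OCLN at 3.34, CLDN1 at 2.95, DSP at 2.74, CLDN4 at 1.09 and CLDN7 at 0.108 RPKM. The library ranges of CLDN12 and JUP, of OCLN and CLDN1, and of CLDN1 and DSP overlapped there. In NT2, JUP (27.0 RPKM) and CLDN1 (25.8 RPKM) led with overlapping ranges, ahead of DSP at 15.9, TJP1 at 12.8, CLDN12 at 7.51, OCLN at 7.08, PKP2 at 4.27, CLDN4 at 0.179 and CLDN7 at 0.152 RPKM. CLDN12 and OCLN overlapped in NT2, and so did CLDN4 and CLDN7. In PRKCI_KD, CLDN1 stood in the third place, behind TJP1 and CLDN12, where its range overlapped neither neighbour. In SOX2_KD the leading pair was CLDN1 at 32.0 RPKM and JUP at 28.7 RPKM, with overlapping ranges.

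Knockdown of PRKCI went with higher levels of most of these genes and a lower level of JUP. In PRKCI_KD against NT1, 6 of the 8 genes tested rose (CLDN1, CLDN4, CLDN12, OCLN, DSP and PKP2), against 18.2% of all genes tested, and 1, JUP, fell, against 26.9% of all genes. The 7 calls stand beside 45.1% of all genes called in either direction. TJP1 did not pass. Scaling moved the balance over all genes, with 3694 higher and 5443 lower as deposited and 4255 and 4897 with quantile normalization. With median-of-ratios scaling it was 4202 and 4795, and the same 7 genes were called under each. The median log2 fold change of the 8 was 0.25, beside -0.035 over all 20244 genes; each fold change is taken on the log2(RPKM + 1) scale, which understates the ratio of genes at low levels. The 6 that rose had all 3 PRKCI_KD libraries above all 3 NT1 libraries, which 21.0% of all genes showed, and JUP had all 3 below, which 30.0% showed. The comparison asks which transcripts differ once PRKCI is silenced. Markers of cell state moved as well: of 3 lung epithelial markers tested of 5, KRT18 rose (log2 fold change 0.33, adjusted p = 0.00548), NKX2-1 fell (-0.16, adjusted p = 0.0281) and KRT8 did not pass, and of 3 mesenchymal markers VIM fell (-0.40, adjusted p = 0.000682), CDH2 fell (-0.15, adjusted p = 0.0414) and ZEB1 did not pass. The summed epithelial markers were at 180 to 243 RPKM in NT1 and 228 to 254 RPKM in PRKCI_KD, and the mesenchymal ones at 574 to 675 and 460 to 488 RPKM. In all 4 groups the epithelial sum was nearly all KRT8 and KRT18, and the mesenchymal sum nearly all VIM. EPCAM and CDH1, both near 0, had lower means in PRKCI_KD (0.193 and 0.00900 RPKM) than in NT1 (0.304 and 0.0346 RPKM), with overlapping libraries. The part of these markers in the change of the junction genes was not tested.

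CLDN1, a claudin that is required for the barrier of the epidermis, changed most. It was at 2.89, 2.56 and 3.41 RPKM in NT1, from 891 to 1259 reads, and at 8.20, 8.36 and 8.34 RPKM in PRKCI_KD, from 2670 to 2908 reads. The PRKCI_KD libraries lay close together and well above every control, with a ratio of means of 2.81. On the log2 scale it rose by 1.24 (SE 0.07; adjusted p = 3.18e-07, limma-trend with Benjamini-Hochberg adjustment over all genes tested, as for each adjusted p below). CLDN12, an unusual claudin known for calcium transport in the intestine, was at 11.0, 12.1 and 13.1 RPKM in NT1 and at 13.5, 14.7 and 14.1 RPKM in PRKCI_KD. The highest control lay just below the lowest knockdown library, and the log2 fold change was 0.21 (SE 0.07, adjusted p = 0.0319). That call did not survive the removal of NT1 replicate 1 (adjusted p = 0.118) or 2 (0.0670), nor that of PRKCI_KD replicate 2 (0.103) or 3 (0.0737). It was also lost with only the 6 libraries of that flow cell (0.0612) and with no level filter (0.0569). By GENCODE 29, exons of CLDN12 share bases with those of 4 other genes on the same strand, CDK14, GTPBP10, AC002456.2 and AC006153.1, for at most 5.50% of its exonic bases each.

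CLDN4, a claudin of simple epithelia and the receptor of a Clostridium toxin, was low. It was at 1.01, 0.985 and 1.27 RPKM in NT1 and at 1.44, 1.29 and 1.30 RPKM in PRKCI_KD, so that NT1 replicate 3 nearly reached the lowest knockdown library. The log2 fold change was 0.17 (SE 0.06, adjusted p = 0.0477), and the call was lost when any single library other than NT1 replicate 3 was left out, with adjusted p between 0.0502 and 0.152. CLDN7, which is abundant in many glandular epithelia, was at 0.0472, 0.0549 and 0.221 RPKM in NT1 and at 0.0814, 0.0549 and 0.0459 RPKM in PRKCI_KD, from 10 to 54 reads per library. NT1 replicate 3 held 54 of these reads against 14 and 13 in the other controls, and the groups overlapped. NT1 replicate 3 was also the highest of the NT1 libraries for 7 of the 9 genes and the lowest for the other two, JUP and PKP2.

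OCLN was at 3.12, 3.05 and 3.85 RPKM in NT1 and at 4.31, 4.54 and 4.44 RPKM in PRKCI_KD. All knockdown libraries were higher, and on the log2 scale the rise was 0.33 (SE 0.08, adjusted p = 0.00489). Its unprocessed pseudogene OCLNP1 lies on the same chromosome, so reads of OCLN could be shared with that copy. TJP1 was at 20.4, 21.0 and 21.9 RPKM in NT1 and at 20.2, 20.1 and 22.6 RPKM in PRKCI_KD. These groups overlapped, and the 95% interval of its log2 fold change ran from -0.15 to 0.12 (adjusted p = 0.886).

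The desmosome genes moved in opposite directions. DSP was at 2.62, 2.74 and 2.85 RPKM in NT1 and at 4.20, 4.08 and 4.39 RPKM in PRKCI_KD, with a narrow spread in both groups; on the log2 scale the rise was 0.48 (SE 0.05; adjusted p = 1.83e-05). PKP2, which anchors desmoplakin to the plaque, was at 5.86, 5.85 and 5.33 RPKM in NT1 and at 7.22, 6.96 and 7.22 RPKM in PRKCI_KD, again without overlap (log2 fold change 0.28, SE 0.05, adjusted p = 0.00101). JUP, which serves both desmosomes and adherens junctions and is a relative of beta-catenin, was at 13.0, 10.8 and 8.51 RPKM in NT1 and at 7.75, 6.65 and 6.13 RPKM in PRKCI_KD. The NT1 libraries were spread widely, with NT1 replicate 3 just above the highest knockdown library. The log2 fold change of JUP was -0.58 (SE 0.14, adjusted p = 0.00652), and the ratio of DSP to JUP, each in RPKM, was 0.201 to 0.335 in NT1 and 0.542 to 0.715 in PRKCI_KD.

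**Figure D2:**
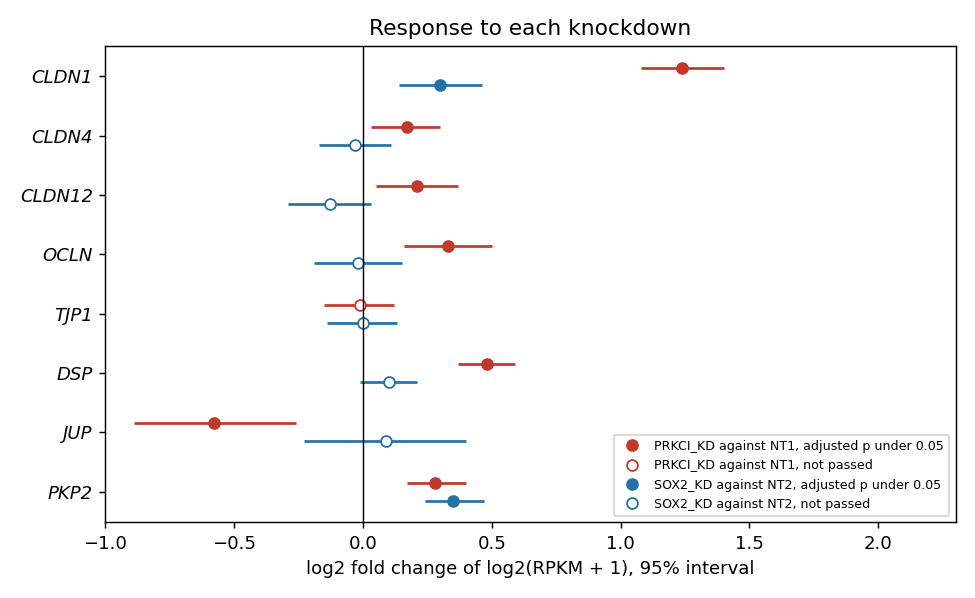
Log2 fold change of log2(RPKM + 1) (horizontal axis) of the 8 genes tested in PRKCI_KD against NT1 (red) and SOX2_KD against NT2 (blue), with 95% intervals; filled points passed an adjusted p of 0.05 and open points did not. CLDN1 has the largest value in PRKCI_KD (1.24), JUP is the only gene lower there among those that passed (-0.58), and CLDN1 and PKP2 are the filled points of SOX2_KD.

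Knockdown of SOX2 went with small rises of PKP2 and CLDN1. In SOX2_KD against NT2, 2 of the 8 genes tested rose, against 3.60% of all genes tested that rose and 8.22% called in either direction, and none fell, against 4.62% of all genes; besides CLDN1 and PKP2 no gene of the 8 had an unadjusted p under 0.05, and limma voom on recovered reads also called these 2. NT2 and SOX2_KD share replicate numbers, and with these as a replicate block 3513 genes passed in place of 1664, and CLDN1 and PKP2 were again the 2 called. Scaling set the balance over all genes, with 729 higher and 935 lower as deposited, 770 and 591 with quantile normalization and 923 and 744 with median-of-ratios scaling; both genes were called under each. The median log2 fold change of the 8 was 0.04, beside -0.016 over all genes. Of the same markers, KRT18 rose (0.34, adjusted p = 0.0223), CDH2 fell (-0.25, adjusted p = 0.0159) and KRT8, NKX2-1, VIM and ZEB1 did not pass. The epithelial sum was 88.9 to 97.0 RPKM in NT2 and 111 to 118 RPKM in SOX2_KD, and the mesenchymal sum 339 to 350 and 309 to 337 RPKM; their part in the change was not tested.

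PKP2 was at 4.03, 4.52 and 4.25 RPKM in NT2, from 2310 to 3481 reads, and at 5.62, 5.69 and 5.88 RPKM in SOX2_KD, from 3426 to 4920 reads. All 3 knockdown libraries lay above all controls, as for 12.9% of all genes, with a ratio of means of 1.34; the rise on the log2 scale was 0.35 (SE 0.05; adjusted p = 0.00263). CLDN1 was at 24.1, 26.2 and 27.1 RPKM in NT2 and at 31.0, 32.5 and 32.5 RPKM in SOX2_KD, again without overlap, with a ratio of means of 1.24. Its log2 fold change was 0.30 (SE 0.07, adjusted p = 0.0283), and the call did not survive the removal of the first or second NT2 library (adjusted p = 0.0833 and 0.0702) or of any SOX2_KD library (0.0538, 0.103 and 0.10 for replicates 1, 2 and 3).

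The other 6 genes tested overlapped between NT2 and SOX2_KD as groups, although within each same-numbered pair DSP was higher and CLDN12 lower in SOX2_KD (adjusted p = 0.0896 and 0.0847 in limma with the replicate block). DSP was at 15.1, 16.5 and 15.9 RPKM in NT2 and at 16.5, 17.6 and 17.0 RPKM in SOX2_KD, with a 95% interval of the log2 fold change from -0.01 to 0.21 (adjusted p = 0.262). JUP was at 31.6, 25.0 and 24.6 RPKM in NT2 and at 31.4, 26.3 and 28.2 RPKM in SOX2_KD, with the widest interval of the 8, from -0.23 to 0.40 (adjusted p = 0.801). OCLN was at 6.42, 7.61 and 7.22 RPKM in NT2 and at 6.60, 7.24 and 7.00 RPKM in SOX2_KD (interval -0.19 to 0.15). The knockdown values of OCLN all lay within the range of the controls. TJP1 was at 11.9, 13.2 and 13.2 RPKM in NT2 and at 12.2, 13.1 and 12.8 RPKM in SOX2_KD (interval -0.14 to 0.13). CLDN12 was at 6.91, 7.80 and 7.82 RPKM in NT2 and at 6.26, 6.87 and 7.20 RPKM in SOX2_KD (interval -0.29 to 0.03). In NT2, CLDN4 was near 0, at 0.185, 0.230 and 0.121 RPKM, as in SOX2_KD, at 0.198, 0.118 and 0.144 RPKM, from 44 to 118 reads; it passed the level filter through NT1 and PRKCI_KD. CLDN7 was at 0.157, 0.172 and 0.125 RPKM in NT2 and at 0.203, 0.109 and 0.136 RPKM in SOX2_KD, and also overlapped. By GENCODE 29, 10.8% of its exonic bases are shared with AC003688.1 on the same strand.

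The responses to the knockdowns were compared within the same limma fit. The response in SOX2_KD minus that in PRKCI_KD passed for 5 of the 8 genes, where 26.2% of all genes passed: it was lower for 4 (CLDN1, CLDN12, OCLN and DSP), against 11.4% of all genes, and higher for JUP, against 14.8%. The difference was largest for CLDN1, at -0.94 in log2 units (SE 0.10; adjusted p = 8.95e-05). For DSP it was -0.38 (SE 0.07; adjusted p = 0.00242). Both held without each library in turn. The differences of CLDN12 (-0.34, adjusted p = 0.0299), OCLN (-0.35, adjusted p = 0.0354) and JUP (0.66, adjusted p = 0.0319) did not. That of CLDN12 was lost when replicate 1 or 2 of NT1 or SOX2_KD, or replicate 2 or 3 of PRKCI_KD or NT2, was left out (adjusted p between 0.0538 and 0.0715). That of OCLN was lost when replicate 1 or 2 of NT1, any of PRKCI_KD, 2 or 3 of NT2, or 1 or 3 of SOX2_KD was left out (0.0515 to 0.0865). That of JUP was lost when replicate 1 or 2 of NT1, 2 or 3 of PRKCI_KD or NT2, or 1 or 3 of SOX2_KD was left out (0.0591 to 0.0741). For PKP2, which rose in both knockdowns, the difference was 0.07 with a 95% interval from -0.09 to 0.23. Each knockdown was read on its own flow cell and from another starting level, so a difference between knockdowns and one between flow cells cannot be told apart.

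The controls differed from each other by more than either knockdown did from its control for 7 of the 8 genes tested, PKP2 excepted. In NT2 against NT1, 4 genes were higher (CLDN1, OCLN, DSP and JUP), against 36.2% of all genes tested, and 4 lower (CLDN4, CLDN12, TJP1 and PKP2), against 42.0%, and 78.2% of all genes were called in either direction. There was no overlap for any of the 8, where 35.8% of all genes were higher and 41.7% lower without overlap. CLDN1 had a ratio of means of 8.73 (log2 fold change 2.76, SE 0.07, adjusted p = 2.16e-11), DSP of 5.79 (2.17, SE 0.05, adjusted p = 6.71e-12), JUP of 2.50 and OCLN of 2.12. CLDN4 was lower by 0.82 on that scale (log2 fold change -0.82), with a ratio of means of 0.164; it was tested only because its level in NT1 and PRKCI_KD passed the filter, so its place among the 4 lower genes is a description. TJP1, CLDN12 and PKP2 had ratios of 0.604, 0.623 and 0.751. All 8 kept their calls and directions in each alternative that held them. Control group and flow cell cannot be told apart.

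The 23 claudin entries of the table were summed to see which claudins made up the total. In NT1, CLDN1 took 8.08% to 11.0% of the summed claudin RPKM and CLDN12 took 36.0% to 42.0%; most of the rest was CLDN15, at a mean of 8.81 RPKM. In PRKCI_KD the share of CLDN1 was 21.8% to 23.4%, above every NT1 library, while that of CLDN12, 36.0% to 39.7%, overlapped NT1. In NT2 and SOX2_KD, CLDN1 took 64.2% to 67.5% and 69.9% to 70.9%. The sum itself was 30.5 to 31.7 RPKM in NT1, 35.6 to 37.5 in PRKCI_KD, 37.5 to 40.1 in NT2 and 44.3 to 46.0 in SOX2_KD, higher in each knockdown than in its control without overlap. The mean of CLDN1 alone went from 2.95 to 8.30 RPKM in PRKCI_KD and from 25.8 to 32.0 RPKM in SOX2_KD. Claudins outside the 9 genes took 42.2% to 51.1% of the sum in NT1 and 33.2% to 38.1% in PRKCI_KD. A higher sum is therefore not a rise of claudins in general. CLDN7 never exceeded 0.711% of the sum.

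**Figure D3:**
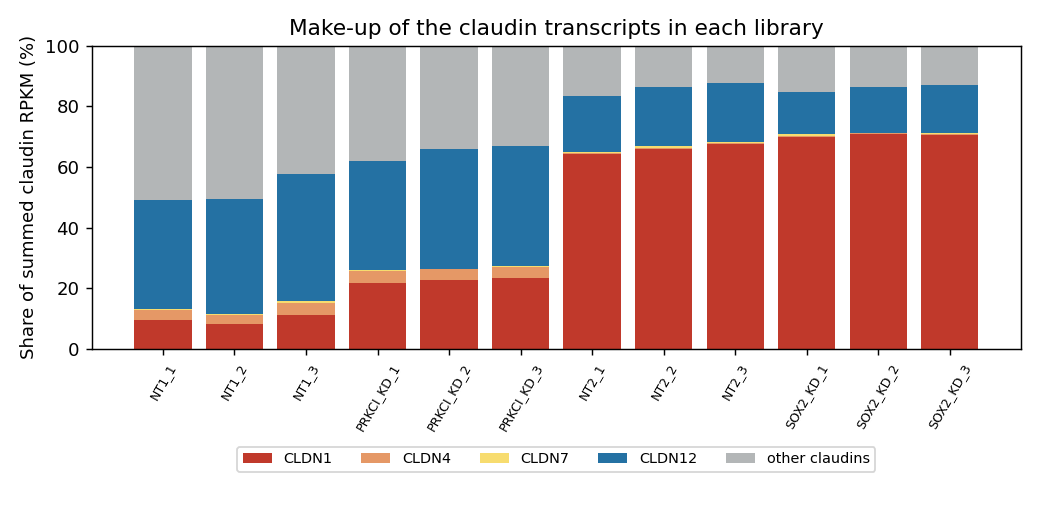
Share of the summed claudin RPKM (vertical axis, percent) taken by CLDN1, CLDN4, CLDN7, CLDN12 and the other claudins in each of the 12 libraries. CLDN1 takes at most 11.0% in NT1, 21.8% to 23.4% in PRKCI_KD and at least 64.2% in NT2 and SOX2_KD.

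Other genes of these junctions were read beside the 9. Of 59 further tight junction and desmosome genes in the table, 33 passed the level filter; in PRKCI_KD 6 rose, against 18.2% of all genes, 7 fell, against 26.9%, and 20 did not pass, with a median log2 fold change of -0.01. These shares are near those of all genes. Among 11 membrane proteins of the tight junction, 4 fell and 1 rose, beside the same 26.9% and 18.2% of all genes. CXADR, the coxsackievirus and adenovirus receptor, fell from 12.3 to 6.27 RPKM (log2 fold change -0.86, adjusted p = 7.31e-05), BVES, which encodes a Popeye domain membrane protein, from 7.31 to 4.68 RPKM (-0.55, adjusted p = 1.23e-05), and CLDN2, a claudin that forms cation pores, from 1.15 to 0.567 RPKM (-0.45, adjusted p = 3.28e-05). The junctional adhesion molecule gene F11R was at 4.70 RPKM in NT1 and 5.17 RPKM in PRKCI_KD (0.11, adjusted p = 0.0371), and lost its call in 15 of 22 alternatives, among them each of the 3 NT1 and 3 PRKCI_KD libraries left out (adjusted p up to 0.195 over all 15). F11R is listed at 0 in all NT2 libraries.

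Among 16 cytoplasmic proteins of the tight junction, 4 rose and 3 fell in PRKCI_KD, where 45.1% of all genes were called, a share near theirs. ARHGEF2, a RhoA exchange factor held at junctions by cingulin, rose from 11.7 to 19.3 RPKM (log2 fold change 0.68, adjusted p = 2.92e-06), and YBX3, a nucleic acid binding partner of ZO-1, from 33.9 to 46.8 RPKM (0.45, adjusted p = 3.82e-05). AMOTL1, an angiomotin that binds YAP, fell from 13.3 to 6.96 RPKM (-0.84, adjusted p = 1.81e-06), CGNL1, which encodes paracingulin, from 0.960 to 0.498 RPKM (-0.39, adjusted p = 0.000130), and MAGI3, a scaffold, from 3.24 to 2.54 RPKM (-0.26, adjusted p = 0.0161). The call of MAGI3 was lost when the third NT1 library or the first or second PRKCI_KD library was left out (adjusted p up to 0.0639). Of the 6 other desmosome genes tested, PPL, the periplakin gene, alone passed in PRKCI_KD, from 15.6 to 22.3 RPKM (0.52, adjusted p = 0.0110), and not in a fit of only the 6 libraries of its flow cell (adjusted p = 0.0646). The desmosomal cadherin genes DSG2 and DSC2 were at 19.9 and 1.59 RPKM in NT1 and at 17.2 and 1.72 RPKM in PRKCI_KD. Of 5 transcription factor genes known to act on epithelial junction genes, OVOL2 alone was tested, and it rose from 2.99 to 3.98 RPKM (0.32, adjusted p = 0.00112).

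In SOX2_KD, 2 of the 33 rose, against 3.60% of all genes, 2 fell, against 4.62%, and 29 did not pass. These shares too are near those of all genes. Some of the 33 passed the level filter through NT1 and PRKCI_KD and were near 0 in NT2 and SOX2_KD. Among them were F11R (0 and 0.00185 RPKM), CGNL1 (0.00740 and 0.00647), CLDN3 (0.0211 and 0.0285) and CLDN2 (0.0260 and 0.0297). A change of these genes could hardly be called there, so the 33 overstate how many could pass. YBX3 rose from 51.0 to 63.7 RPKM (log2 fold change 0.31, adjusted p = 0.00470) and INADL, a polarity scaffold, from 5.37 to 6.30 RPKM (0.20, adjusted p = 0.0383). CGN, which encodes cingulin, fell from 4.47 to 3.61 RPKM (-0.25, adjusted p = 0.0244) and BVES from 2.01 to 1.57 RPKM (-0.23, adjusted p = 0.0255). INADL, CGN and BVES lost their calls in 12, 5 and 7 of 22 alternatives, most of them with 1 library left out (adjusted p up to 0.145, 0.103 and 0.0965), and YBX3 in none. Of the 6 other desmosome genes tested, none passed in SOX2_KD. Without overlap, 4 were lower (DSG2, PERP, PKP4 and PPL), against 18.2% of all genes, and none was higher, against 12.9%. DSG2 went from 22.7 to 17.8 RPKM (log2 fold change -0.33, adjusted p = 0.0768).

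**Figure D4:**
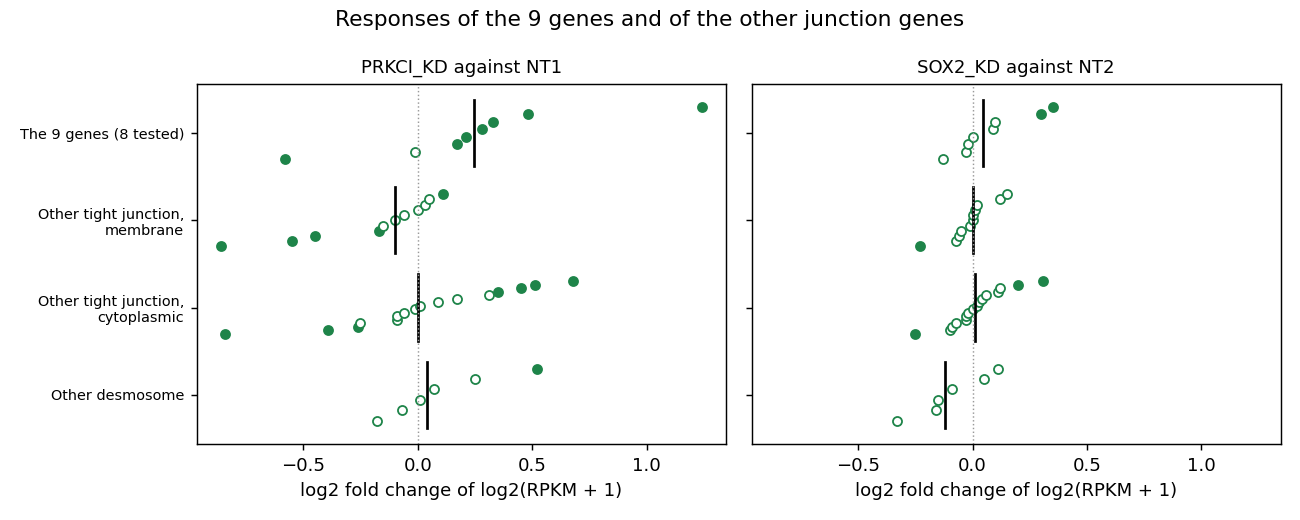
Log2 fold change of log2(RPKM + 1) (horizontal axis) in PRKCI_KD against NT1 (left) and SOX2_KD against NT2 (right) for the 8 genes tested of the 9 and for 3 lists of other junction genes; each point is a gene, filled where its adjusted p was under 0.05, and the black bar is the median of the list. The medians in PRKCI_KD are 0.25 for the 8 genes, -0.10 for other tight junction membrane proteins, 0.00 for cytoplasmic ones and 0.04 for other desmosome genes.

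Profiles most like those of the genes that passed were sought among all genes tested, by the root mean square difference over the 12 libraries of log2(RPKM + 1) centred on the mean of each flow cell. For CLDN1 the nearest were TICAM2 (0.064) and SEC24A (0.068), against a root mean square of 0.457 for the centred values of CLDN1 themselves. That reference was smaller for the others, at 0.261 for JUP, 0.179 for DSP, 0.166 for PKP2, 0.140 for OCLN, 0.115 for CLDN12 and 0.084 for CLDN4. Each distance is therefore to be read beside the reference of its own gene. Between NT1 and PRKCI_KD, TICAM2 went from 4.36 to 12.5 RPKM, and SEC24A from 13.6 to 34.3 RPKM. For DSP they were FADS1 (0.026) and GPC6 (0.029), for JUP RIN1 (0.040) and GPS1 (0.049), and for PKP2 ZSWIM6 (0.038) and YPEL2 (0.040). For OCLN TRIM6 was the nearest (0.037), for CLDN12 they were RNF139 (0.028) and RNF11 (0.029), and for CLDN4 AVIL and RP4-816N1.7 (0.037 each). None of these is a junction gene of the lists used here.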

How the data were processed

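The authors deposited 1 RPKM table that holds every library. TopHat2 2.1, Bowtie 1.1.2 and featureCounts, with build GRCh38, are named in the submitters' processing notes. Which annotation, strand setting and denominator they used is not given in the sources used here. A kit that does not mark strand is named in the labels. The members and lists were chosen with earlier results of these data known.

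Entries with a repeated name (7068) or a date for a name (29) were left out, except 869 whose name had a single entry above 0, TJP1 and OCLN among them; the second entries of TJP1 and OCLN are at 0. The entries left out held 1.52% to 1.94% of reads. Each library's total and each gene's length were found as the whole numbers that turn RPKM into whole reads: of the 38880 entries detected in 3 or more libraries, 99.94% came out whole throughout (within 0.001 reads), all 9 members included.

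Genes that reached 0.5 RPKM in 3 or more libraries were tested on log2(RPKM + 1) with limma 3.58.1 (limma-trend, R 4.3.3), with the 4 groups of 12 libraries fitted together and 8 residual degrees of freedom, two-sided, Benjamini-Hochberg adjusted, threshold 0.05. The fit was tested on simulated data. An exact permutation test of 3 against 3 libraries cannot go below p = 0.1. Same-numbered libraries of NT2 and SOX2_KD deviated together (correlations 0.502, 0.237 and 0.237). NT2 replicate 3 and SOX2_KD replicate 2 did so about as much (0.234), so only the pair of replicate 1 stands out. Same-numbered libraries of NT1 and PRKCI_KD did not all deviate together (0.487, -0.113 and 0.344). These correlations thus do not settle pairing in either flow cell. The main fit used none, and the replicate block, fitted over both flow cells, is given as an alternative. Named were all 9 members, the 3 largest calls per list and direction, the targets, and the 2 nearest profiles of each member called in a knockdown; a few genes that this rule names are not reported here. Intervals cover 95%. Coordinates are from GENCODE 29 (GRCh38).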

Additional observations from a re-analysis of the deposited data

Results flagged for a closer look

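The responses to PRKCI and SOX2 knockdown differed by the test of the difference itself for 5 of the 8 genes tested, where 26.2% of all genes differed. The SOX2_KD response minus the PRKCI_KD response, on the log2 scale, was -0.94 for CLDN1, -0.34 for CLDN12, -0.35 for OCLN, -0.38 for DSP and 0.66 for JUP. The calls of CLDN12, OCLN and JUP were each lost when one of several single libraries was left out, and the number called was then 2 to 6. Flow cell and starting level moved with the knockdown in each of these, and their part in the differences was not tested.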

How the results depend on the processing

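Apart from the libraries left out in turn, 10 alternatives were tried in PRKCI_KD against NT1; leaving out all repeated names, chosen after seeing the data, removes TJP1 and OCLN. In that comparison the number of the 8 genes called was 5 to 7 over all alternatives, and no called gene changed direction in any comparison. CLDN4 was called in 6 of 22 alternatives (log2 fold change 0.06 to 0.31), with adjusted p = 0.0650 under the replicate block, which changed no other call of the 9 genes. In SOX2_KD against NT2, 1 gene was called in place of 2 with a pseudocount of 0.1 and with no level filter, CLDN1 being lost (adjusted p = 0.0540 and 0.0548), and 1 to 2 with a library left out. In the difference between responses, 2 in place of 5 were called with no level filter, and 2 to 6 with a library left out. In NT2 against NT1 the 8 genes were called with each library left out; the replicate block cannot be fitted there, because its blocks lie within flow cells. Counts over all genes in SOX2_KD fell from 1664 to 699, 711 or 1104 without SOX2_KD replicate 3, 2 or 1, and to 884 or 925 without NT2 replicate 2 or 3, and rose to 3513 with the replicate block. The count also rose to 2291 without NT1 replicate 3, a library outside this comparison but in the same limma fit. The adjusted p of CLDN1 in SOX2_KD then went from 0.0283 to 0.00701. Limma voom on the recovered reads called 9185 genes in PRKCI_KD and 1730 in SOX2_KD. CLDN7, at 10 to 63 reads per library, was below the level filter, and no test of it is reported. The causes of the lost calls were not tested, except that dropping the level filter raised the number of genes tested to 44268.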
